A study of Mus with 4 samples.

Results

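High-fat diet was compared with normal chow in tumors of Nrf3 knockdown cells, as the array labelled shNrf3-HFD minus the array labelled shNrf3-NC, gene by gene on the deposited log2 values. The genes were those with a mean over the 4 arrays at or above the median row mean of 5.73, with the brightest probe set taken where a gene had several. This left 10021 of 19505 genes with a symbol. Rtn4ip1 and Efcab6 were just outside this limit, with differences of 0.71 and 0.01. Lrrc25 and Plin1 were just inside it, with differences of -0.87 and -0.13.

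The study measured RNA from Renca tumors, which grow from a mouse renal adenocarcinoma cell line. Male BALB/cCrSlc mice, bought at 4 to 6 weeks of age, ate normal chow (NC, CE-2) or a high-fat diet (HFD, HFD-60) for 17 weeks. Cells with stable expression of shNrf3, a hairpin that targets Nrf3, or of shCtrl, the control construct, were injected under the skin of the flank, and tumors were taken 2 weeks later. The 4 groups, named by construct and diet, had 1 array each, and all 4 came from cells carrying a hairpin. It is not stated in the labels if RNA of 1 tumor or of several went on an array, nor if each cell line was 1 clone. With 1 array a side there is no replicate error and no test, so every difference below describes these arrays and not the diets. The RNA is from whole tumor tissue, where fewer cells of a type and less RNA per cell cannot be told apart.

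Nrf3, encoded by Nfe2l3, is a transcription factor of the cap'n'collar family that sits in the endoplasmic reticulum membrane and, once released, pairs with small Maf proteins on antioxidant response elements. A subcutaneous tumor holds cancer cells together with fibroblasts that lay down matrix, vessels, immune cells and, at its edge, fat, muscle and skin of the host. A high-fat diet enlarges fat depots and alters circulating lipids, insulin and adipokines.

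Nfe2l3 read 6.22 in shCtrl-NC, 5.56 in shNrf3-NC, 5.77 in shCtrl-HFD and 6.05 in shNrf3-HFD. The knockdown array was therefore below its control on chow and above it on the high-fat diet, and all 4 readings were close to the negative control medians of 5.35 to 5.39. The label of the shNrf3-HFD array is thus not borne out by its targeted gene, and "shNrf3-HFD" means the array labelled so throughout. The labelled cell type was partly borne out: Krt7, a keratin of simple epithelia, read 14.43 to 15.73, while Pax8, a transcription factor of kidney epithelium, was below the negative control median on all 4 arrays at 4.45 to 5.01.

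More genes were 2-fold or more lower in shNrf3-HFD than higher. The higher side held 187 of the 10021 genes (1.87%) and the lower side 504 (5.03%), while the median difference was -0.03. At 1.5-fold the shares were 8.84% higher and 14.4% lower. At 4-fold the counts were 6 higher and 86 lower, and at 8-fold 1 higher and 29 lower. Among 4279 genes brighter than the 95th percentile of negative controls on both arrays, 31 were higher by 2-fold or more and 132 lower. A fold is given below only for genes this bright; where 1 of both arrays lay under its negative control median, the difference is a bound taken against that median.

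**Figure D1:**
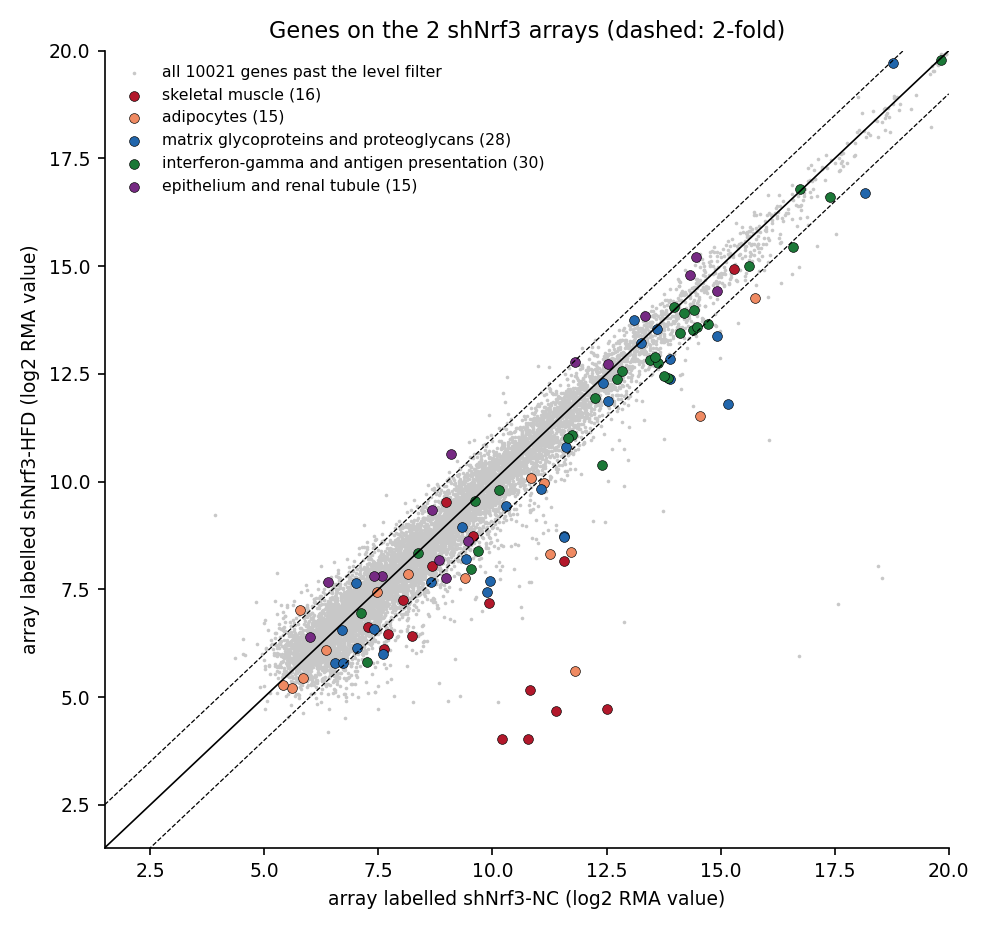
Log2 RMA value of each of the 10021 genes on the shNrf3-NC array (horizontal axis) and the shNrf3-HFD array (vertical axis), 1 array each, with members of 5 gene lists coloured and dashed lines at 2-fold. Genes lie around the diagonal, with muscle, fat and matrix members far below it.

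The other arrays show from which side a difference came. Of the 504 lower genes, shNrf3-HFD lay 2-fold or more below all other 3 arrays for 104, shNrf3-NC lay as far above all others for 108, both held for 13, and neither for 279. Of the 187 higher genes, shNrf3-HFD stood alone for 22, shNrf3-NC for 22, and neither for 143. Lower genes with 1 array apart thus divided almost evenly between both arrays.

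Skeletal muscle genes had the lowest median of 38 gene lists on the deposited values, and shNrf3-NC was the array that stood out. The list median was -1.25, and 30 of 40 measured members were 1.5-fold or more lower and 1 higher. Over all 19505 genes 12.7% were lower and 13.3% higher at this size. Only 16 members passed the filter on level, and 11 were below the negative control median on both shNrf3 arrays. With low readings set to that median, the list median was -0.64. The unfolded protein and heat shock list, with no reading below that median, had -0.98, so muscle was then not the lowest. Acta1, the actin of muscle fibres, read 5.15 in shCtrl-NC, 12.51 in shNrf3-NC, 6.48 in shCtrl-HFD and 4.73 in shNrf3-HFD, a bound of -7.12. The same order held for Myl1, a myosin light chain, at 5.06, 11.38, 6.46 and 4.67, a bound of -6.00. Both transcripts were bright on the shNrf3-NC array and far dimmer on the other 3. Myh4, a fast myosin heavy chain, read 4.56, 10.21, 4.76 and 4.02, a bound of -4.82, and for Myh8, a perinatal one, the bound was -5.40. Tnnt3, a fast troponin T, was above the negative control median on every array at 9.89, 11.57, 9.90 and 8.15, a difference of -3.42. Not all members had this order: Tpm1, a tropomyosin also made outside muscle, read 15.42, 15.29, 14.79 and 14.93, and Tnnt1, a slow troponin T, was highest in shCtrl-NC at 9.96. Members below the negative control median numbered 25 in shCtrl-NC, 11 in shNrf3-NC, 24 in shCtrl-HFD and 28 in shNrf3-HFD. Against the mean of the shCtrl arrays in place of shNrf3-NC, an alternative added after the data were seen that mixes construct with diet, the median was -0.17. The part of muscle tissue in any other difference was not tested.

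Fat genes were lower too, but as a list they did not have the order of muscle genes. Among 20 adipocyte markers, 10 were 1.5-fold or more lower and 2 higher, with a median of -0.58. Their median levels were 6.61 in shCtrl-NC, 7.12 in shNrf3-NC, 7.43 in shCtrl-HFD and 6.55 in shNrf3-HFD. The shNrf3-NC array was the highest of 4 for 10 of the 20. With shCtrl, 13 were higher on the high-fat diet and 0 lower. Retn, which encodes the adipokine resistin, read 6.58 in shCtrl-NC, 11.81 in shNrf3-NC, 7.52 in shCtrl-HFD and 5.60 in shNrf3-HFD, a difference of -6.21. Adipoq, which encodes adiponectin, read 8.38, 11.73, 9.70 and 8.36, a difference of -3.37. Cidec, a lipid droplet protein of fat cells, read 8.98, 11.27, 10.15 and 8.31, a difference of -2.96. All 3 were highest in shNrf3-NC, and the diet difference had the other sign with shCtrl, at 0.94, 1.31 and 1.17. Car3, a carbonic anhydrase of fat and muscle, was instead low in shNrf3-HFD alone, at 11.53 against 13.35 to 14.56, and 8.14-fold lower than in shNrf3-NC.

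The lowest differences of all were in Mup genes, which encode the major urinary proteins, small secreted lipocalins made mainly in liver. Mup22 read 16.36 in shCtrl-NC, 18.53 in shNrf3-NC, 13.68 in shCtrl-HFD and 7.75 in shNrf3-HFD, a difference of -10.78. Mup2, Mup9 and Mup19 had differences of -10.78, -10.41 and -10.39. These genes are nearly identical copies, so the probe sets may read the same transcripts. With shCtrl the high-fat array was also the lower, and the Mup22 difference was -2.69.

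Extracellular matrix genes were lower in shNrf3-HFD, mostly with that array the lowest of the 4. Matrix glycoproteins and proteoglycans had a median of -0.87, with 20 of 31 measured members lower and 3 higher; shNrf3-HFD was the lowest of the 4 arrays for 19 of those 20, and shNrf3-NC the highest for 10. With shCtrl the median was -0.33, with 9 lower and 2 higher. Dcn, decorin, a proteoglycan that binds collagen fibrils, read 15.01 in shCtrl-NC, 15.15 in shNrf3-NC, 13.95 in shCtrl-HFD and 11.80 in shNrf3-HFD, 10.2-fold lower in the last than on chow. Lum, lumican, of the same family, read 13.53, 11.57, 11.75 and 8.73, a difference of -2.84. Dpt, dermatopontin, read 11.04, 11.57, 11.10 and 8.74, a difference of -2.82. In all 3 the shNrf3-HFD array lay more than 2-fold below each of the others, which differed less among themselves for Dpt. Sparc, a collagen-binding glycoprotein, was bright throughout at 17.93, 18.17, 17.98 and 16.70, 2.78-fold lower. Tnc, tenascin C, was 2.90-fold lower and Bgn, biglycan, 2.82-fold. Fn1, fibronectin, was an exception, with 18.97, 18.78, 18.92 and 19.72, 1.91-fold higher.

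Collagens were lower too, with a list median close to that with shCtrl, though not always in the same genes. The median of 17 fibrillar and network collagens was -0.63, with 9 lower and 2 higher, and shNrf3-HFD was the lowest array for 8 of the 9. With shCtrl the median was -0.61, with 9 lower and 1 higher, the only list median of that size below 0 with that construct. Col3a1, the type III collagen chain, read 17.56, 16.73, 16.91 and 14.99 in the same order of arrays, 3.34-fold lower with shNrf3. Col1a2 read 14.94, 14.15, 14.12 and 12.50, 3.14-fold lower, and Col1a1 was 1.83-fold lower. Both encode chains of type I collagen. With shCtrl the differences of Col3a1, Col1a2 and Col1a1 were -0.65, -0.83 and -0.04. Col16a1 and Col15a1 instead had 0.14 and 0.01 with shNrf3, against -1.67 and -1.51 with shCtrl. Col18a1, a basement membrane collagen, was 1.59-fold higher. Against the mean of the shCtrl arrays the list median was -1.0.

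Enzymes that crosslink and cut the matrix were also lower, with 16 of 26 members lower, none higher at 1.5-fold, and a median of -0.75. Among the 16, shNrf3-HFD was the lowest array for 10 and shNrf3-NC the highest for 11. Over all 26 members these counts were 14 and 13. Mmp2, a gelatinase, read 11.19, 11.11, 10.89 and 8.80, a difference of -2.31, with shNrf3-HFD apart for this gene. Lox, lysyl oxidase, which crosslinks collagen, was lower on both high-fat arrays at 13.14, 13.32, 11.42 and 11.44, 3.67-fold lower with shNrf3. Prg4, lubricin, read 10.27, 10.65, 9.55 and 6.84, and Sfrp2, a secreted Wnt modulator of fibroblasts, read 10.76, 10.80, 9.87 and 7.68. Of 23 fibroblast and pericyte markers 10 were lower and 1 higher, with a median of -0.24: Thy1 and Cd34 had differences of -1.34 and -1.24, while Fap was 0.35. The muscle list had median levels of 4.98, 6.45, 4.75 and 4.67 on the same arrays, and its part in the matrix differences was not tested.

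**Figure D2:**
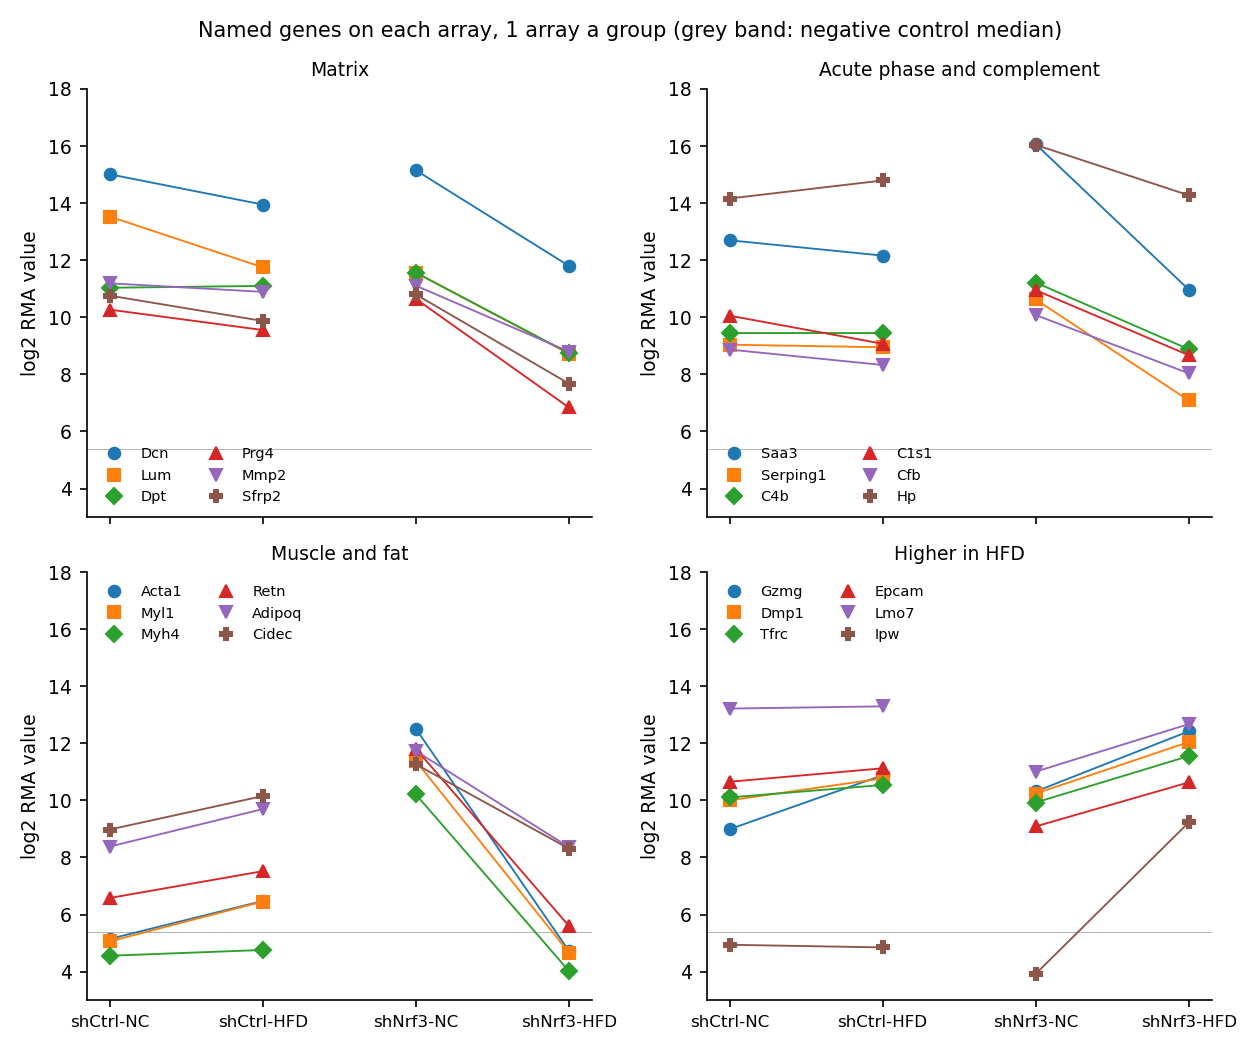
Log2 RMA values of 24 named genes in 4 panels, 1 array a group, with lines joining NC to HFD within a construct and a grey line at the negative control median. Matrix genes are lowest in shNrf3-HFD, muscle genes are high in shNrf3-NC alone, and the genes of the last panel are higher in shNrf3-HFD than in shNrf3-NC.

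Acute phase, complement and coagulation genes were lower, more often with shNrf3-NC the highest array than with shNrf3-HFD the lowest. The median was -0.79, with 16 of 30 lower and none higher at 1.5-fold. Among the 16, shNrf3-HFD was lowest of 4 for 11 and shNrf3-NC highest for 14. Over all 30 members these counts were 11 and 22. Saa3, serum amyloid A3, an acute phase protein of fat and macrophages, read 12.70 in shCtrl-NC, 16.07 in shNrf3-NC, 12.16 in shCtrl-HFD and 10.97 in shNrf3-HFD, 34.2-fold lower. Serping1, the C1 inhibitor, read 9.04, 10.62, 8.95 and 7.09, a difference of -3.54. Both genes were highest in shNrf3-NC and lowest in shNrf3-HFD. C4b and C1s1, components of the classical complement pathway, had differences of -2.34 and -2.28, and Cfb, complement factor B, -2.04. Against the mean of the shCtrl arrays the list median turned to 0.16. Hp, haptoglobin, was high in shNrf3-NC alone at 14.16, 16.04, 14.79 and 14.27, 3.41-fold lower. C1qc, a C1q chain made by macrophages, was 1.17-fold higher, while the C1q chains C1qa and C1qb were 1.14-fold and 1.15-fold lower. Serpinb2, an inhibitor of plasminogen activators, was low on both high-fat arrays at 14.01, 13.73, 11.33 and 9.32, 21.3-fold lower with shNrf3.

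Inflammatory cytokines and chemokines had a median of -0.87, with 20 of 33 lower and 1 higher, and a median of -0.06 against the mean of the shCtrl arrays. Cxcl13, which draws B cells, read 9.01 in shCtrl-NC, 12.88 in shNrf3-NC, 8.68 in shCtrl-HFD and 6.74 in shNrf3-HFD, a difference of -6.14. Cxcl2 and Ccl8, chemokines for neutrophils and monocytes, were 6.78-fold and 6.29-fold lower, with shNrf3-NC apart from the rest. Cxcl12 and Cxcl1 had differences of -2.49 and -2.42 with shNrf3-HFD apart. Il6 read 12.46, 10.82, 10.25 and 9.29, so that shCtrl-NC was its highest array. Ccl12, a monocyte chemokine, was 1.91-fold higher, at 10.41 in shNrf3-NC and 11.35 in shNrf3-HFD.

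Genes induced by interferon-gamma were lower than in shNrf3-NC, but shNrf3-HFD was above both shCtrl arrays. Of 30 members 18 were lower and none higher at 1.5-fold, with a median of -0.65, and shNrf3-NC was the highest array for all 18. The median level was 10.42 in shCtrl-NC, 13.59 in shNrf3-NC, 11.47 in shCtrl-HFD and 12.66 in shNrf3-HFD, and against the mean of the shCtrl arrays the list median turned to 0.96. H2-Aa, a class II antigen presentation chain, read 12.75, 16.59, 13.76 and 15.44, 2.23-fold lower. Cxcl9, a T cell chemokine, read 10.47, 14.73, 10.43 and 13.66, 2.09-fold lower. Psmb9, an immunoproteasome subunit, read 8.25, 12.39, 10.24 and 10.39, 4.0-fold lower. Both shNrf3 arrays exceeded both shCtrl arrays for all 3 genes. The type I interferon list had a median of -0.58, with 11 of 24 lower and 1 higher. Irf7, its main amplifying factor, was lowest in shNrf3-HFD at 10.80, 11.04, 12.20 and 9.78, while Dhx58, an RNA sensor, was 2.05-fold higher.

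Lymphocyte and myeloid markers did not all go one way. At 1.5-fold, 12.7% of all 19505 genes were lower and 13.3% higher. T cell markers had a median of -0.78, with 13 of 19 lower and 2 higher, from low levels: Cd3g, a chain of the T cell receptor complex, read 5.76, 7.84, 5.21 and 5.02, a bound of -2.45. Against the mean of the shCtrl arrays the T cell median was -0.34. Of 19 markers 11 were under the negative control median in shNrf3-HFD and 5 in shNrf3-NC. Among cytotoxic lymphocyte genes 7 of 19 were lower and 4 higher. Only 8 of these 19 passed the filter on level, and 6 were below the negative control median on both shNrf3 arrays. Gzmb, granzyme B, read 6.69, 10.89, 7.69 and 9.36, 2.90-fold lower, while Gzmg, a related granzyme, read 8.99, 10.31, 10.88 and 12.42, 4.32-fold higher, and Gzmf was 2.35-fold higher. Granzymes C to G are close paralogs, and probe sets may share signal. Of 28 macrophage and monocyte markers 11 were lower and 2 higher, with shNrf3-NC highest for all 11; Apoe, a lipid carrier, was 3.43-fold lower and Mrc1, the mannose receptor, 2.0-fold, while Ccr2, a monocyte receptor, was 1.71-fold higher. Neutrophil markers had a median of -0.02, with 6 of 22 higher and 4 lower; Stfa2, a stefin of myeloid cells, read 6.97, 7.67, 8.94 and 9.68, higher on both high-fat arrays.

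**Figure D3:**
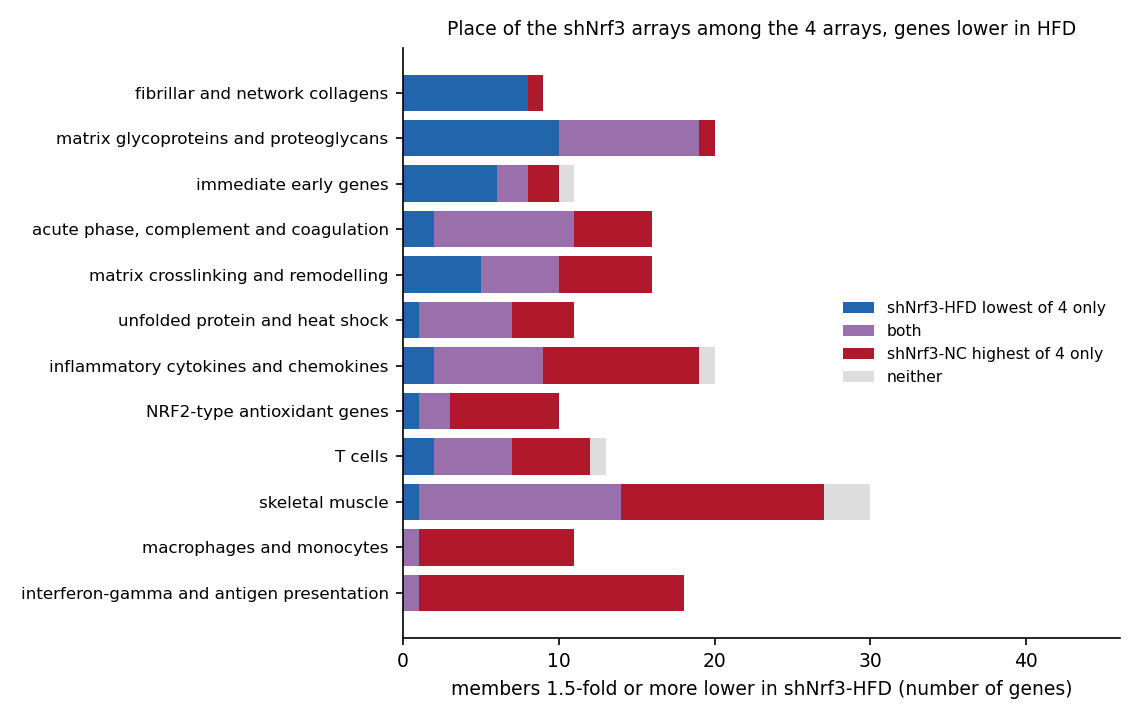
For 12 gene lists, the number of members 1.5-fold or more lower in shNrf3-HFD than in shNrf3-NC, split by whether shNrf3-HFD was the lowest of the 4 arrays, shNrf3-NC the highest, both or neither. Collagens are lower mostly with shNrf3-HFD lowest (8 of 9), and interferon-gamma genes with shNrf3-NC highest (18 of 18). Members were chosen by the difference between these 2 arrays, which by itself favours both places.

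Stress response lists differed among themselves, beside 12.7% of all 19505 genes 1.5-fold or more lower and 13.3% higher. The unfolded protein and heat shock list had a median of -0.98, with 11 of 21 lower and none higher at 1.5-fold. Hsph1, a large heat shock protein, read 10.73, 12.88, 10.69 and 9.89, 7.97-fold lower, and Hspa1b, an inducible HSP70, read 12.53 in shNrf3-NC against 10.39 in shCtrl-NC and 10.70 in shCtrl-HFD, 5.74-fold lower. Both were high in shNrf3-NC alone, and against the mean of the shCtrl arrays the list median was -0.01. Herpud1, a factor of endoplasmic reticulum degradation, read 11.06, 11.63, 11.82 and 10.15, so that shCtrl-HFD was its highest array. Like Hsph1 and Hspa1b, it was lowest in shNrf3-HFD. The ATF4 and amino acid response list had a median of -0.07, with 1 of 22 lower and 2 higher; Slc7a5, an amino acid transporter, was 2.17-fold higher. Of 23 antioxidant genes of the NRF2 type, which share response elements with Nrf3, 10 were lower and none higher at 1.5-fold, with a median of -0.52 and shNrf3-NC highest for 9 of the 10; Gclm, a subunit of glutathione synthesis, was 1.98-fold lower and Nqo1, a quinone reductase, differed by 0.03. Immediate early genes had a median of -0.57, with 11 of 23 lower and 1 higher; Egr1, a serum-induced factor, read 13.18, 12.98, 13.59 and 11.26, 3.31-fold lower with shNrf3-HFD apart. Proteasome subunits, known targets of the related factor Nfe2l1, had a median of -0.13, with 2 of 29 lower and none higher at 1.5-fold.

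Lipid genes were lower in some lists and near the median of all genes in others. Beside the counts below, 12.7% of all 19505 genes were 1.5-fold or more lower and 13.3% higher. Fatty acid synthesis and desaturation had a median of -0.54, with 6 of 14 lower and none higher at 1.5-fold. Scd1, stearoyl-CoA desaturase, read 13.16, 16.56, 15.29 and 14.82, 3.35-fold lower, and Fasn, fatty acid synthase, read 9.12, 10.84, 10.42 and 9.74, 2.14-fold lower. For these genes shCtrl-NC was the lowest array and shNrf3-NC the highest. Cholesterol synthesis had a median of 0.07, with 1 of 18 lower and 1 higher. The lipid droplet and uptake list had a median of -0.42, with 6 of 19 lower and 2 higher. Fatty acid oxidation and ketogenesis had 0.08, with 2 of 23 lower and 3 higher; Eci1, an isomerase of the pathway, had a difference of -1.04. Cpt1a, which admits fatty acids to mitochondria, had a difference of 1.15 with shNrf3 and 1.19 with shCtrl. Median levels of the synthesis genes were 8.43, 9.35, 9.43 and 9.03, and those of adipocyte markers 6.61, 7.12, 7.43 and 6.55. The part of fat tissue in these values was not tested.

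Growth and oxygen genes differed less. All measured members of the cell cycle, oxidative phosphorylation and hypoxia lists passed the filter on level. Among the 10021 genes past it, 14.4% were lower and 8.84% higher at 1.5-fold. Cell cycle genes had a median of -0.25, with 6 of 29 lower and 1 higher; oxidative phosphorylation subunits had -0.22, with 5 of 35 lower and none higher at 1.5-fold. Of 24 hypoxia and glycolysis genes 7 were lower and none higher at 1.5-fold; Adm, adrenomedullin, read 12.96, 12.76, 11.75 and 10.96, and Vegfa, the endothelial growth factor, 12.59, 12.38, 11.58 and 11.30, lower on high-fat diet with both constructs. Igf1, an insulin-like growth factor, read 8.78, 10.58, 9.15 and 7.58, a difference of -3.0.

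Genes higher in shNrf3-HFD were fewer and their differences smaller, and epithelial genes had the highest list median. It was 0.38, with 8 of 26 members higher and 3 lower at 1.5-fold, against 13.3% and 12.7% of all 19505 genes. Only 15 members passed the filter on level, and 11 were below the negative control median on both shNrf3 arrays. Epcam, an epithelial adhesion protein, read 10.65 in shCtrl-NC, 9.09 in shNrf3-NC, 11.12 in shCtrl-HFD and 10.63 in shNrf3-HFD, 2.91-fold higher. Grhl2, an epithelial transcription factor, read 8.69, 6.41, 8.82 and 7.67, and Lmo7, a junction protein, 13.22, 11.01, 13.30 and 12.67. For these genes shNrf3-NC was low and shNrf3-HFD did not exceed the shCtrl arrays. Tfrc, the transferrin receptor, was different: it read 10.10, 9.93, 10.54 and 11.55, 3.09-fold higher with shNrf3-HFD above the rest. Dmp1, an acidic matrix protein of bone, read 12.05 in shNrf3-HFD and at most 10.77 on the others, 3.50-fold higher, and Muc1, an epithelial mucin, 7.06, 7.40, 7.20 and 8.75. Ipw, a noncoding RNA of the imprinted Prader-Willi region, read 4.94, 3.92, 4.85 and 9.23, a bound of 3.88, and was at background on the other 3 arrays. Slc12a2, a sodium, potassium and chloride cotransporter, was 2.97-fold higher.

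The same diet comparison with shCtrl, which shares no array with this one, had more higher than lower genes. There the higher side held 1468 of 10021 genes (14.6%) at 2-fold and the lower side 391 (3.90%), and the median difference was 0.26. Of the 187 genes higher with shNrf3, 36 were higher with shCtrl (19.3% of the 187, 2.45% of the 1468) and 9 lower (4.81%). Of the 504 lower genes, 54 were lower with shCtrl (10.7% of the 504, 13.8% of the 391) and 77 higher (15.3%). Across genes, which are not independent replicates, Pearson's r between the differences was 0.02 and Spearman's rho -0.05. List medians at least 1.5-fold lower numbered 9 with shNrf3 and 1 with shCtrl, and those at least 1.5-fold higher 0 and 10. Whether the constructs differ in their response to diet was not tested, since each rests on 1 array a side.

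**Figure D4:**
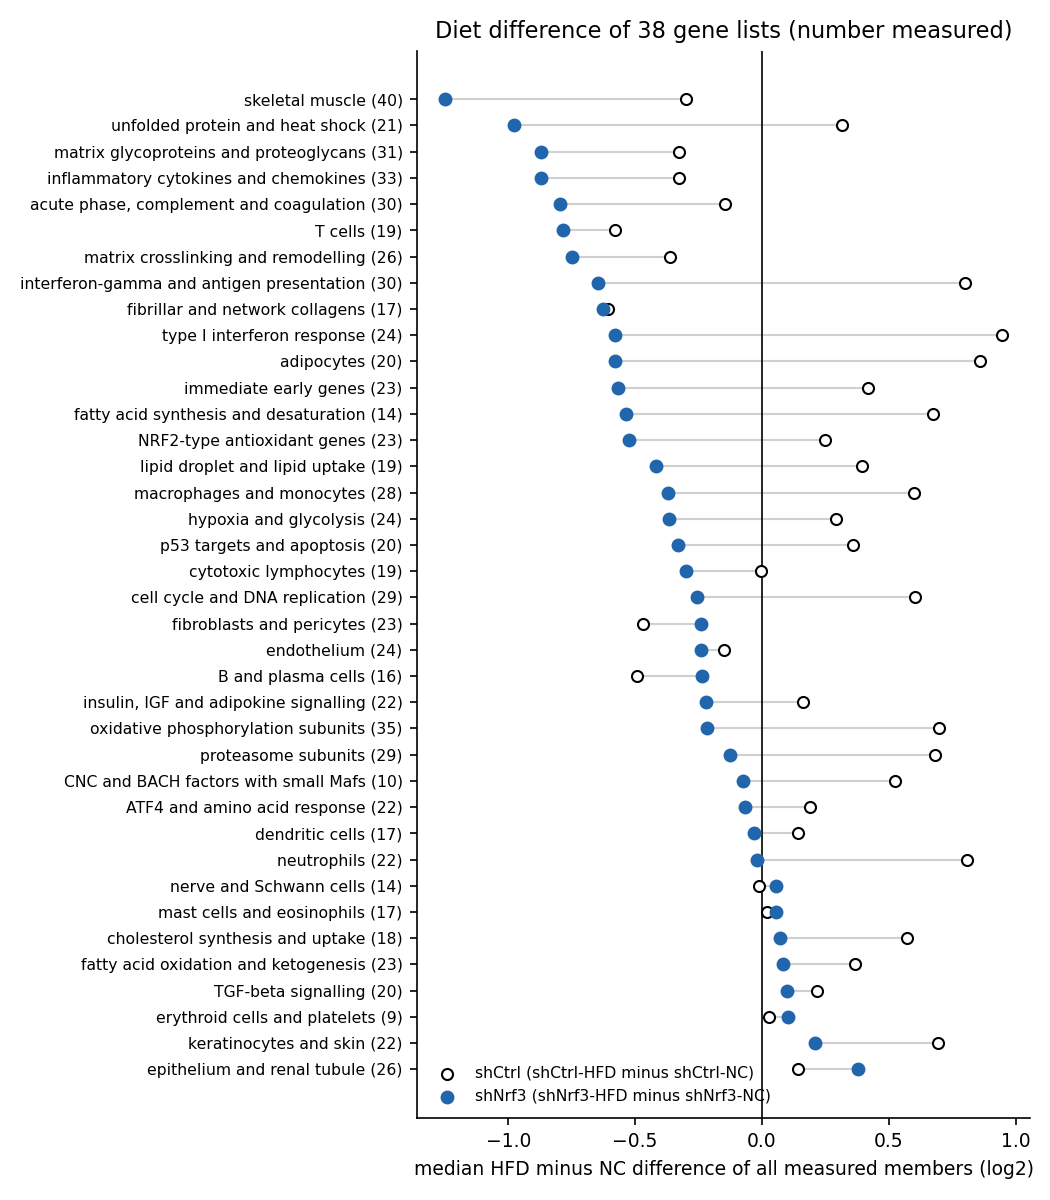
Median HFD minus NC difference (log2) of all measured members of 38 gene lists with shNrf3 (filled) and with shCtrl (open), with the number measured in brackets. Medians with shNrf3 run from -1.25 to 0.38, and most shCtrl medians lie to their right.

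**Figure D5:**
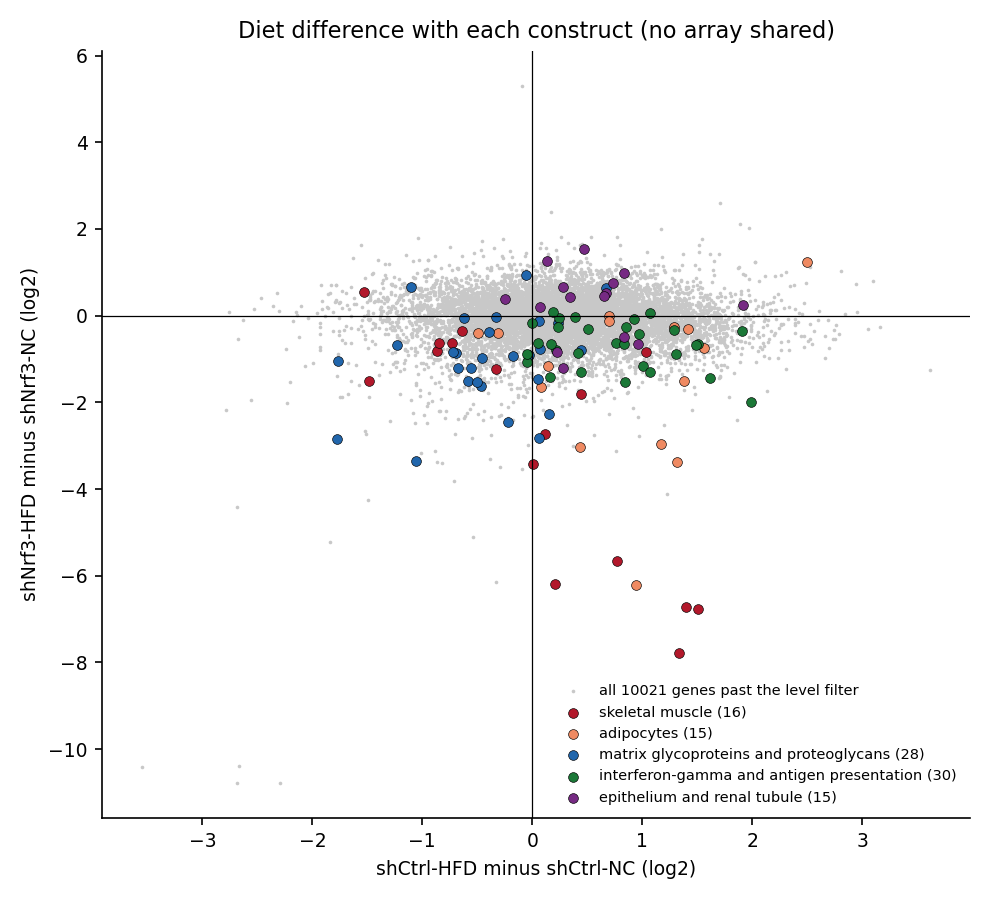
HFD minus NC difference (log2) of each of the 10021 genes with shCtrl (horizontal axis) and shNrf3 (vertical axis), with 5 lists coloured. The lowest points with shNrf3 are Mup genes (-10.78 to -10.39), followed by muscle and fat members, and Pearson's r across genes is 0.02.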

How the data were processed

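Expression was measured on 4 Affymetrix arrays from 100 ng of total RNA each, 1 array a group. The authors deposited log2 values made with Affymetrix Expression Console and RMA, per the submitters' processing notes, which name no version. RMA gives log2 values by construction, and folds assume that scale. The highest value was 19.93 on each of the 4 arrays, and 3 genes stood at it on both shNrf3 arrays. The variant of RMA is not named, so folds hold only for the values as deposited. The table holds 28846 rows: 22206 transcript and 6640 control rows, 5222 of them negative controls. Of the transcript rows, 19572 had 1 symbol in the platform annotation, all with an Entrez ID found in RefSeq's gene table, and 2634 were unnamed here. All 4 columns were used. The number of arrays limits the precision.

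Differences and list medians were computed with Python 3.11.15 and pandas 2.3.3, and checked on simulated data; cyclic loess used limma 3.58.1. A gene was counted at 2-fold and a list member at 1.5-fold. List members were described whether or not they passed the filter on level; lists held 935 entries, of which 859 were measured. The genes and the 38 lists were chosen with earlier results of these data known.

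Genes named were drawn from ranked groups among those past the filter, and not every gene of a group is named. The groups were the 15 highest and 15 lowest differences and 5 bounds each way. Also used were the 10 largest gaps of each shNrf3 array to the other 3 in each direction. Up to 4 members with the largest difference in each list, and Nfe2l3, completed them. Predicted, olfactory, vomeronasal and receptor segment genes (287) were only counted. Other list members, such as Fn1, Nqo1, Col1a1 and Krt7, were named after their values were seen. The panels of plotted genes, the 12 lists shown by array order, the limit of 1.5-fold for leading lists and the tolerances for alternatives were also set then.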

Additional observations from a re-analysis of the deposited data

Results flagged for a closer look

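Gene lists, list members and genes named by rank are given here where the diet difference had opposite signs with shNrf3 and shCtrl, for lists where the medians were also 2-fold or more apart and for genes where each difference was 2-fold or more, limits set after the values were seen. With 1 array a group, none of these differences between constructs was tested. Fatty acid synthesis and desaturation genes had a median of -0.54 with shNrf3 and 0.67 with shCtrl. Unfolded protein and heat shock genes had -0.98 and 0.32. Type I interferon genes had -0.58 and 0.95, and interferon-gamma and antigen presentation genes -0.65 and 0.80. Adipocyte markers had -0.58 and 0.86. Over all 10021 genes, 77 of the 504 lower genes (15.3%) were 2-fold or more higher with shCtrl, near the 14.6% of all genes. Lower there were 9 of the 187 higher genes (4.81%), near the 3.90% of all genes. Among fat genes, Adipoq had -3.37 and 1.31, Cidec -2.96 and 1.17, and Fabp4, a fatty acid carrier, -1.50 and 1.38. The lipid synthesis genes Scd1 and Fasn had -1.74 and -1.10 with shNrf3, against 2.13 and 1.30. Class II antigen presentation genes H2-Aa, H2-DMa and H2-DMb1 had -1.16, -1.30 and -1.44, against 1.0, 1.07 and 1.62. Type I interferon genes Ifi27l2a, Irf7, Ifit1 and Oas1a had -2.42, -1.26, -1.18 and -1.12, against 1.86, 1.41, 1.77 and 1.44. The proteasome subunits Psmb9 and Psmb2 had -2.0 and -1.15, against 1.99 and 1.72. Ccl5, a lymphocyte chemokine, had -1.81 with shNrf3 and a bound of 1.28 with shCtrl. Ftl1, ferritin light chain, had -1.06 and 1.89, Gstm1, a glutathione transferase, -1.02 and 1.02, and Fosb, an immediate early factor, -1.01 and 1.48. Bounds for the muscle genes Acta1 and Myl1 were -7.12 and -6.0 with shNrf3, against 1.09 and 1.07. Igfl3, an insulin growth factor-like gene, had a bound of 1.58 with shNrf3 and -1.35 with shCtrl. Median levels of adipocyte markers were 6.61 in shCtrl-NC, 7.12 in shNrf3-NC, 7.43 in shCtrl-HFD and 6.55 in shNrf3-HFD, and the part of fat or muscle tissue in these differences was not tested.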

How the results depend on the processing

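No paired analysis was possible because the labels carry no replicate numbers and each group has 1 array. Counts of 2-fold genes and list medians stayed within 1.5 times, or within 0.1 for a median, of the values above under cyclic loess, centring and the mean of probe sets, except that genes higher with shNrf3 and lower with shCtrl numbered 15 under cyclic loess. Counts followed the filter on level and the fold. With no filter, 738 genes were higher and 805 lower, and higher genes made up 47.8% of these against 27.1%; 115 higher genes stood apart by shNrf3-HFD, 63 by shNrf3-NC, and 173 lower genes by shNrf3-NC; 63 were higher and 90 lower with both constructs, and 91 higher with shNrf3 and lower with shCtrl. With the filter at the 75th percentile the counts were 46 and 244 (15.9% higher); 9 higher and 54 lower genes stood apart by shNrf3-HFD, 4 and 60 by shNrf3-NC; 11 and 30 were shared with shCtrl, and 0 and 42 had the opposite sign there. At 1.5-fold they were 886 and 1442 (38.1% higher), with 145 and 325 apart by shNrf3-HFD, 184 and 368 by shNrf3-NC, 276 and 212 shared and 120 and 487 opposite. The muscle median was -0.59 with that stricter filter and -0.64 with low readings set to the negative control median, and the unfolded protein median -0.51 with the filter. List medians moved beyond these limits for 11 lists with the stricter filter and for 10 with low readings so set. For counts of list members, 8 moved and 68 stayed under cyclic loess, 5 and 71 under centring, and 1 and 75 with the mean of probe sets. With low readings so set 18 moved and 58 stayed, with the stricter filter 35 and 37, and with only members past the usual filter 23 and 53.

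The choice of chow array mattered most for list medians. Without shNrf3-NC, shNrf3-HFD was set against the mean of both shCtrl arrays, an alternative added after the data were seen that mixes construct with diet. Then 295 genes were higher and 422 lower (41.1% higher), and medians were -0.014 for unfolded protein, 0.96 for interferon-gamma, -0.056 for cytokine, 0.16 for acute phase, -1.0 for collagen, -0.17 for muscle and -0.34 for T cell genes. Single genes were checked for 192 genes only, those named by rank or with the largest differences in a list. Among those with a difference of 2-fold or more, the sign turned for 21. Lower genes became higher for Ccl5 (0.74), Cxcl11 (0.50), Folr2 (1.22), Ftl1 (0.81), Gzmb (2.17), H2-DMb1 (2.42), Jchain (0.83), Klrc1 (0.030), Pmp22 (0.19), Psmb2 (0.057), Psmb9 (1.15) and Scd1 (0.60). Higher genes became lower for Epcam (-0.26), Fgfbp1 (-1.15), Grhl2 (-1.08), Krt14 (-0.44), Lmo7 (-0.58), Ngp (-0.033), Rasef (-0.29), Sycp1 (-0.35) and Sycp3 (-0.31). H2-Aa, H2-DMa and Cxcl9 were not among the 192 genes, but in shNrf3-HFD they too read below shNrf3-NC and above both shCtrl arrays. The cause of the sign changes was not tested. With 1 array a group, neither diet nor construct can be told apart from the single tumor sample, and readings near the negative controls give no reliable size.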

Other observations

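Gene families were grouped by symbol after the data were seen, and differences between constructs were not tested. The 38 Rpl genes past the filter had a median diet difference of -0.04 with shNrf3 and 1.17 with shCtrl, and the 29 Rps genes, named like them for ribosomal proteins, -0.00 and 0.91. With shNrf3, 2 Rpl genes were 1.5-fold or more lower and none higher. Chemokine genes named Ccl were lower with both constructs, at medians of -0.72 and -0.59 over 17 genes, with 11 lower and 1 higher with shNrf3. Cox genes, mostly subunits of cytochrome oxidase, had medians of -0.37 and 0.74 over 18 genes. Of 22 keratinocyte and skin markers 6 were higher and 2 lower with shNrf3, and those below the negative control median numbered 9 in shCtrl-NC, 16 in shNrf3-NC, 8 in shCtrl-HFD and 15 in shNrf3-HFD. Krt10, a keratin of differentiated epidermis, read 6.45 in shCtrl-NC, 5.02 in shNrf3-NC, 9.50 in shCtrl-HFD and 4.72 in shNrf3-HFD.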
